A study of Mus musculus with 12 samples.

Results

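Positions 57 to 60 form the 3′ side of the T loop of transfer RNA (tRNA), and position 58 holds the adenosine that the TRMT6 and TRMT61A methyltransferase is known to turn into 1-methyladenosine. The 4 bases were found by their place relative to the conserved T at position 55, with G at 53, C at 56 and A at 58, and every base was taken at 57, 59 and 60. T stands for U in the tables. The 404 tRNA entries held 213 distinct sets of values. The T loop was found in 177 of these and not in the other 36, which gave 708 members among 14012 base rows. Small RNA of under 200 nt came from wild-type mouse hematopoietic stem and progenitor cells, which give rise to blood. The 4 groups were old cells with CMC, old cells in BEU buffer without CMC, young cells with CMC and young cells in BEU buffer, with 3 libraries each. All 12 libraries were demethylated beforehand with AlkB, in its wild-type form and in a mutant form, and all went through sodium carbonate buffer. The labels give no age in weeks or months and do not say whether libraries came from separate animals. The p-values thus reflect library-to-library spread only, part or all of it possibly technical. The tables hold tRNA alone, so the labelled cell type could not be checked against marker genes.

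The T loop folds against the D loop and holds the tRNA elbow together. Pseudouridine at position 55, and in some tRNAs at 54, is made by TRUB1 and PUS10, and 1-methyladenosine at 58 adds a positive charge to the loop. The methyl group lies on the edge of the base that pairs with the complementary strand and is known to halt reverse transcriptase, and AlkB is known to remove it. CMC, a carbodiimide, stays on pseudouridine through the carbonate step and halts the enzyme there. The stop rate is the number of stop reads assigned to a base as a percent of its coverage in reads. A rise with CMC is given in percentage points, CMC minus BEU.

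The A at 58 is set by the selection rule. The other bases were not: position 57 was a purine in all 177 tRNAs, with G in 126 and A in 51. Position 59 was A in 99 tRNAs, T in 42, G in 28 and C in 8, and position 60 was T in 123, C in 36, A in 13 and G in 5. The most frequent sets of 4 bases were AAAT in 39 tRNAs and GAAT in 38, followed by GATT in 19. The T arms below, from position 49 to 75 and 5′ to 3′ as the deposited rows give them, are those on which the results turn. Capitals mark positions 57 to 60.
tRNA-Tyr-GTA-5-1: gctggttcGAGTccggctcgaaggacc
tRNA-Tyr-GTA-4-1: gctggttcGACTccggctcgaaggacc
tRNA-Tyr-GTA-2-1: gctggttcGATTccggctcgaaggacc
tRNA-Tyr-GTA-1-1: gctggttcGAATccggctcgaaggacc
tRNA-Met-CAT-5-1: ctgagttcAAACctcagagggggcacc
tRNA-Met-CAT-2-1: ctgagttcGAACctcagagggggcacc
tRNA-Phe-GAA-3-1: cctggttcAATCccgggtttcggcacc
tRNA-Phe-GAA-1-1: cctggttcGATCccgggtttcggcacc
tRNA-Ala-CGC-4-1: ccgggttcGATTcccggcatctccacc
tRNA-Ala-CGC-1-1: ccgggttcGATCcccggcatctccacc
tRNA-Lys-CTT-1-1: gtgggttcGAACcccacgttgggcgcc
tRNA-Lys-CTT-2-1: gtgggttcGAGCcccacgttgggcgcc
tRNA-Trp-CCA-5-1: gcgtgttcAAGTcacgtcggggtcacc
tRNA-Arg-TCT-5-1: gcgggttcGAGTcccgccagagtcgcc
The first 2 Tyr arms and the 2 below them differ at position 59 alone, and their bases from 60 on are the same. The Met arms and the Phe arms differ at 57 alone, and the Lys arms at 59 alone. A read that stops at 59 holds the bases from 60 on, and a read that stops at 60 holds those from 61 on. The 177 tRNAs had 88 distinct stretches from 61 to 75.

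Depth, taken as the sum of the 213 peak coverages, lay between 201980 and 767650 reads in CMC libraries and between 533736 and 1061426 in BEU libraries. Coverage never exceeded 8015 reads, and stops 3′ of a base at this ceiling are not recorded in full. Of the 708 members, 44 had coverage under 20 in at least 1 library. Of the other 664, coverage at or 5′ of the base reached 7500 reads in at least 1 library at 395. The 269 left were tested, 68 at position 57, 66 at 58, 67 at 59 and 68 at 60, and they lay in 73 tRNAs. None of the tested A58 sites belonged to tRNAs for Asn, Asp, Glu, Gly, Pro or selenocysteine or to initiator tRNA. Median coverage of the tested members ranged from 125 to 860 reads in CMC libraries and from 572 to 2282 in BEU libraries. The 395 members at the ceiling had median stop rates of 2.73% to 3.15% by position in CMC libraries and 1.25% to 1.48% in BEU libraries.

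Below the ceiling, tRNAs that share the bases 3′ of a stop had the same stop reads there. Among tested members there were 126 pairs of tRNAs with the same bases from the next position to 75, and in 126 of 126 the stop reads summed over the 12 libraries differed by no more than 5%. In 15 of these pairs the base at the position itself differed, and their stop reads were the same within that tolerance in 15 of 15. The clearest case was position 59 of the 5 tRNA-Tyr-GTA tRNAs, which hold G, C, T, T and A there. Each of the 5 had 72, 41 and 151 stop reads in the old CMC libraries and 75, 205 and 42 in the young CMC libraries. Coverage was 110, 59 and 203 reads at G59 of tRNA-Tyr-GTA-5-1 in the old CMC libraries, and 722, 390 and 1306 at A59 of tRNA-Tyr-GTA-1-1. The same stop reads therefore made a stop rate of 65.5%, 69.5% and 74.4% at G59 of tRNA-Tyr-GTA-5-1 and of 9.97%, 10.5% and 11.6% at A59 of tRNA-Tyr-GTA-1-1. From which of the 5 tRNAs these reads came cannot be told apart.

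**Figure D1:**
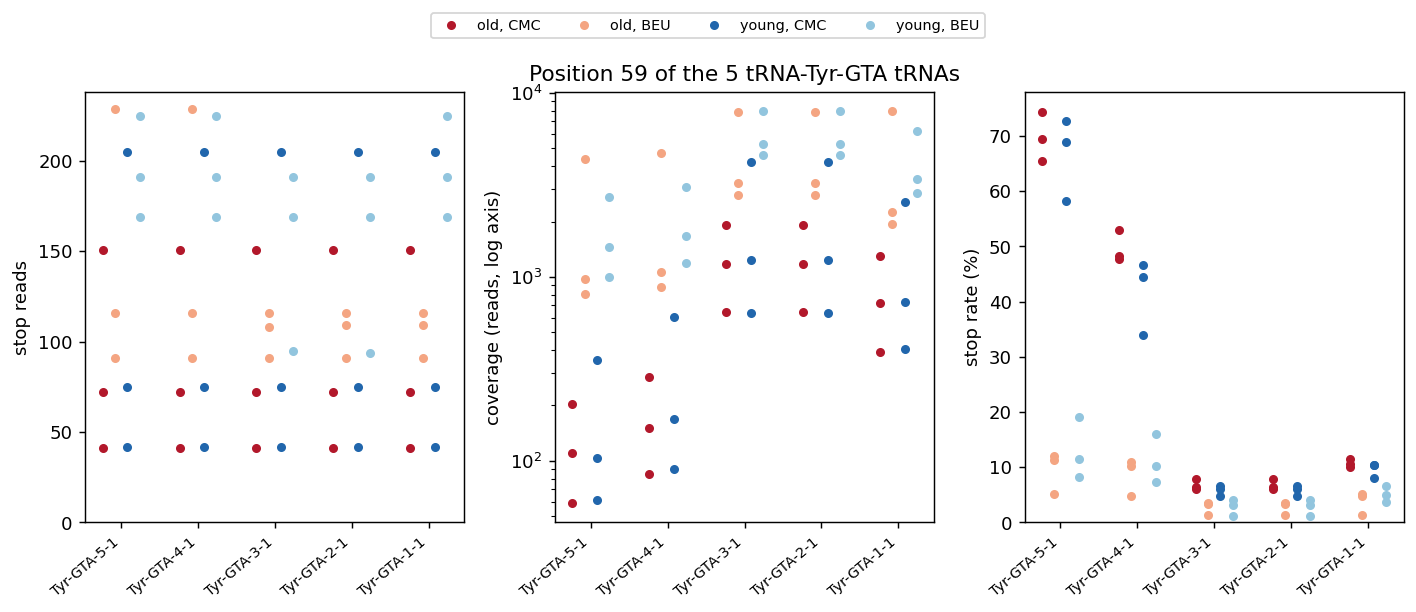
Stop reads, coverage on a log axis and stop rate in percent at position 59 of the 5 tRNA-Tyr-GTA tRNAs, with 1 point per library. The CMC libraries have the same stop reads in each tRNA, while coverage is lowest and the stop rate highest in tRNA-Tyr-GTA-5-1.

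Of the 269 tested members, 106 in 30 tRNAs had bases 3′ of them that no other distinct tRNA has, and 163 (60.6%) shared them with at least 1 other. The high stop rates all lay among the 163. The highest stop rate among the 106 was 12.1% in CMC libraries and 7.88% in BEU libraries, against 82.1% and 79.3% among the 163. A BEU stop rate of at least 10% was seen at 0 of the 106 and at 37 of the 163. The median BEU stop rate was 0.855% at the 106 and 3.75% at the 163. This split was chosen after the values were seen.

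**Figure D2:**
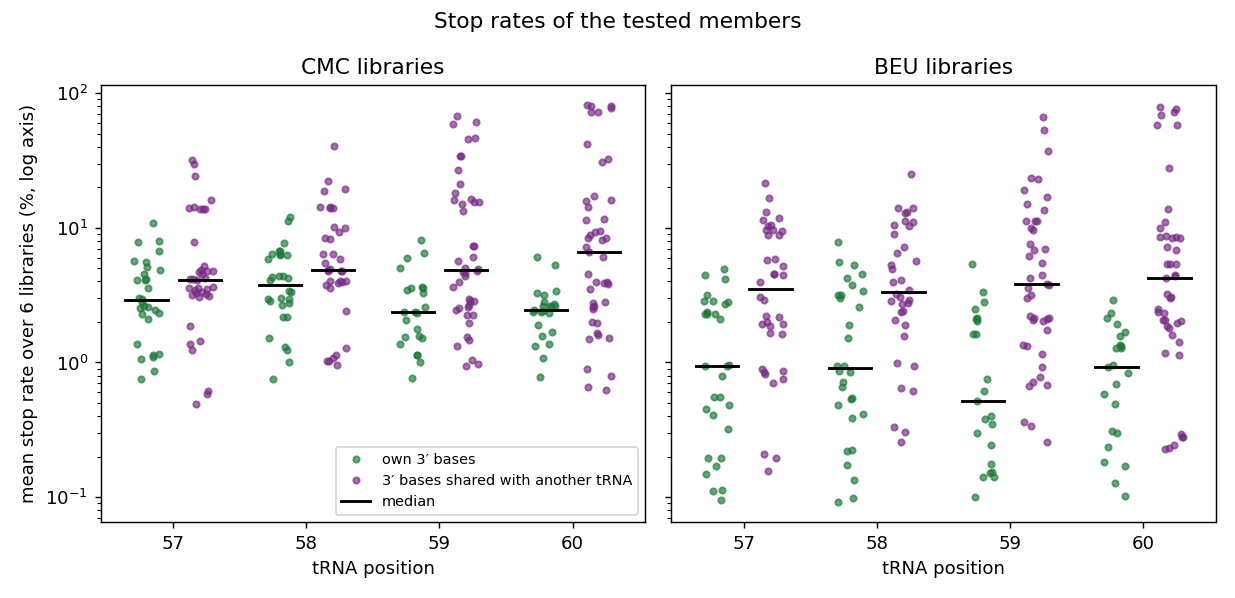
Mean stop rate of each tested member over the 6 CMC libraries (left) and the 6 BEU libraries (right), in percent on a log axis, by tRNA position. Bars are medians; members with 3′ bases of their own reach 7.88% in BEU libraries, and members that share them reach 79.3%.

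Averaged over tested sites, CMC raised the stop rate at each of the 4 positions, by 1.90 to 3.57 points. At position 58 the mean stop rate was 5.88%, 7.45% and 6.00% in the old CMC libraries and 2.65%, 3.99% and 4.08% in the old BEU libraries. It was 7.36%, 4.18% and 7.29% in the young CMC libraries and 4.14%, 5.42% and 3.59% in the young BEU libraries. The old CMC libraries lay above the old BEU libraries, while 1 young CMC library lay inside the range of the young BEU libraries. At position 60, the base next to the T stem, the means were 12.3%, 13.8% and 11.6% in old CMC, 7.50%, 9.93% and 10.1% in old BEU, 12.5%, 10.3% and 13.4% in young CMC and 8.82%, 10.1% and 8.31% in young BEU libraries. CMC and BEU libraries did not overlap at 60 within either age. The means at 60 include 6 alanine T60 sites with BEU stop rates of 58.1% to 79.3%, which had the same stop reads. The median BEU stop rate over sites was 2.04% at 60, beside 2.18% at 57, 2.73% at 58 and 2.14% at 59. The group means at position 57 were 5.69 ± 0.406% in old CMC, 3.35 ± 0.639% in old BEU, 5.44 ± 1.03% in young CMC and 3.99 ± 0.869% in young BEU libraries (SD, n = 3 each). At position 59 they were 10.6 ± 1.44%, 6.24 ± 1.33%, 9.39 ± 1.31% and 6.63 ± 0.734% in the same order (SD, n = 3 each). For scale, position 55, the known pseudouridine, had 33.6% in old CMC against 1.36% in old BEU libraries, and 34.1% in young CMC against 1.37% in young BEU libraries.

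The rise with CMC was 1.90 points at 57, 2.38 at 58, 3.57 at 59 and 3.20 at 60 (exact permutation of the libraries within each age, two-sided, adjusted p = 0.01 at each position). Among members with 3′ bases of their own it was 2.05, 2.43, 1.69 and 1.53 points (exact permutation, adjusted p = 0.01 at each). The lowest value in the tables is 1 stop read, and at the 106 such members 34.4% of the CMC values and 24.2% of the BEU values were at this lowest value. With 1 subtracted from coverage and stop reads, the rise at the 106 was 1.15, 1.56, 0.755 and 0.595 points (exact permutation, adjusted p = 0.01 at each). Median coverage over all tested members was 125 to 860 reads in CMC libraries and 572 to 2282 in BEU libraries, ranges that overlap. The part of coverage in the rise that remains was not tested.

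**Figure D3:**
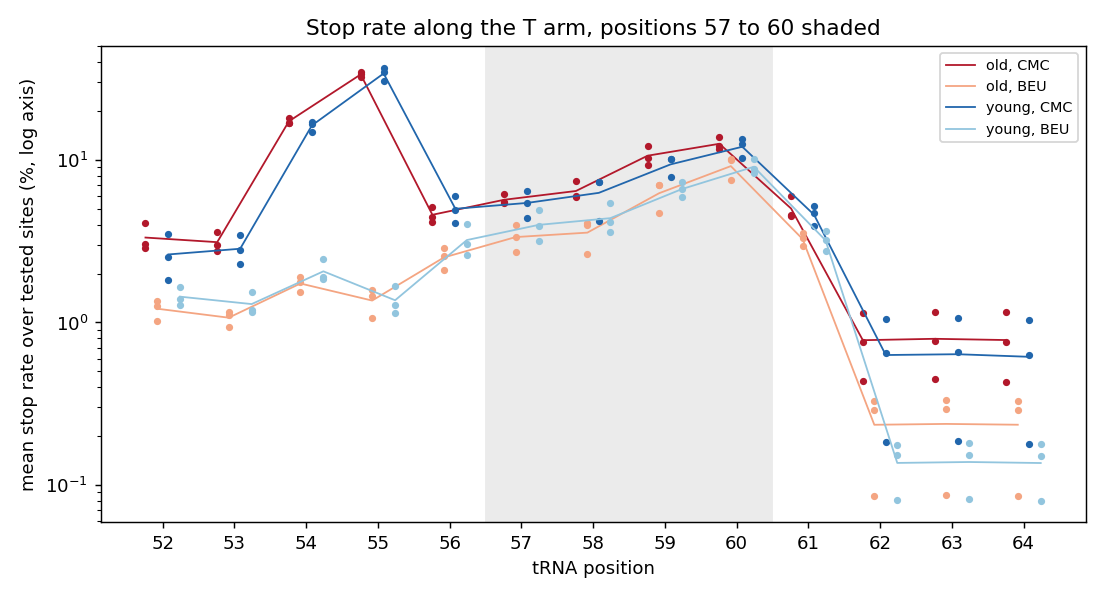
Mean stop rate over tested sites at positions 52 to 64 in percent on a log axis, with lines for the 4 group means and points for the 12 libraries. CMC lines peak at position 55 near 34%. The BEU lines, which are means, rise towards position 60, while BEU medians over sites are 2.18%, 2.73%, 2.14% and 2.04% at 57 to 60. From 62 on few stops are recorded.

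Individual A58 sites ranged widely without CMC. Their mean BEU stop rate ran between 0.0914% and 25.2% over the 66 tested sites, with a median of 2.73%, and 24 sites were under 1%. The highest was A58 of tRNA-Met-CAT-5-1, which reads the Met codon in elongation, with 26.8%, 48.7% and 36.5% in old CMC libraries and 13.3%, 26.2% and 29.5% in old BEU libraries. In young cells it had 53.7%, 32.1% and 45.9% with CMC and 26.2%, 35.2% and 20.5% in BEU. Its stop reads were equal to those of A58 in tRNA-Met-CAT-2-1 in each library, 193 over the CMC libraries and 382 over the BEU libraries for both tRNAs. Coverage over the CMC libraries was 508 reads in tRNA-Met-CAT-5-1 and 5768 in tRNA-Met-CAT-2-1, whose A58 had a BEU stop rate of 2.40%. A58 of tRNA-Ala-TGC-1-1 had a BEU stop rate of 14.1%, that of tRNA-Cys-GCA-13-1 14.0%, that of tRNA-Phe-GAA-3-1 13.2%, that of tRNA-Trp-CCA-6-1 12.8% and that of tRNA-Ser-CGA-3-1 11.1%. Each of these shares its 3′ bases with at least 1 other tRNA. At the low end stood A58 of tRNA-Lys-CTT-4-1 at 0.0914%, of tRNA-Gln-CTG-5-1 at 0.0982%, of tRNA-Thr-AGT-7-1 at 0.133%, of tRNA-Cys-GCA-10-1 at 0.173% and of tRNA-Lys-TTT-2-1 at 0.255%. The first 4 of these have 3′ bases of their own. Median BEU stop rates at positions 62 to 64, where few stops are recorded, were 0.105% to 0.111%. The lowest recorded value is 1 stop read, so depth limits how far the lowest A58 rates can be ranked.

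Among the 30 A58 sites with 3′ bases of their own, the BEU stop rate ranged between 0.0914% and 7.88%, with a median of 0.902%, and the CMC stop rate had a median of 3.76%. The highest, named here after its values were seen, was A58 of tRNA-Trp-CCA-5-1, with 9.35%, 12.8% and 9.74% in old CMC, 5.34%, 8.20% and 7.38% in old BEU, 17.8%, 9.80% and 12.9% in young CMC and 8.09%, 11.1% and 7.21% in young BEU libraries. Its CMC and BEU libraries did not overlap in old cells and overlapped in young cells. The only tested A58 for tyrosine, in tRNA-Tyr-GTA-4-1, also has its own 3′ bases. It had 5.26%, 9.09% and 6.87% in old CMC libraries, 0.404%, 0.950% and 0.630% in old BEU libraries, 8.14%, 2.57% and 8.51% in young CMC libraries and 0.607%, 1.92% and 0.671% in young BEU libraries. CMC and BEU libraries did not overlap in either age, and the rise was 6.41 ± 1.65 points in old cells (edgeR adjusted p = 1.01e-05) and 5.34 ± 4.06 in young cells (adjusted p = 0.00116; SD, n = 3 pairs each). At A58 of tRNA-Lys-CTT-1-1, also with 3′ bases of its own, the stop rate was 7.69%, 11.1% and 10.7% in old CMC and 7.22%, 5.83% and 2.47% in old BEU libraries, a rise of 4.67 ± 3.93 points (adjusted p = 0.271).

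The A58 sites with the best coverage for their amino acid ranged between 0.225% and 13.2%. The BEU stop rate was 5.65% in tRNA-Ala-AGC-7-1, 4.55% in tRNA-Ile-TAT-2-1, 3.96% in tRNA-Thr-CGT-1-1, 3.74% in tRNA-Leu-TAA-2-1, 3.39% in tRNA-Ser-TGA-1-1 and 3.06% in tRNA-Gln-CTG-1-1. It was 2.38% in tRNA-Arg-TCG-2-1, 0.941% in tRNA-Sup-TCA-1-1, 0.713% in tRNA-His-GTG-1-1, 0.615% in tRNA-Val-CAC-3-1 and 0.225% in tRNA-Cys-GCA-6-1. tRNA-Trp-CCA-4-1 stood above these at 10.3%, and the 5 tested Trp sites averaged 10.5%. By amino acid, the 13 Arg sites averaged 1.59%, the 8 Thr sites 1.45%, the 6 Cys sites 4.34% and the 8 Ala sites 5.27%. Some sites in each of these means share their 3′ bases and stop reads, so they are not separate observations. Among the Trp sites this holds for tRNA-Trp-CCA-1-1, tRNA-Trp-CCA-3-1, tRNA-Trp-CCA-4-1 and tRNA-Trp-CCA-6-1.

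Without CMC, A58 was compared with other bases of the same tRNAs within each of the 6 BEU libraries. A58 averaged 3.98 ± 0.899% and position 57 averaged 3.55 ± 0.740% over 66 tRNAs, and A58 was higher in 6 of 6 libraries by 0.431 points. Other A bases of these tRNAs averaged 2.89 ± 0.335%, and A58 was higher in 6 of 6 libraries by 1.09 points. A58 was lower than position 59 by 1.17 points over 64 tRNAs, with 3.78 ± 0.879% at A58 and 4.94 ± 0.914% at 59, and lower than position 60 over 63 tRNAs, with 3.66 ± 0.869% at A58 and 4.96 ± 0.910% at 60. Over 41 tRNAs A58 had 2.53 ± 0.590%, against 4.93 ± 0.198% at the purine of position 37, next to the anticodon and known to carry methyl or larger groups in many tRNAs (SD, n = 6 libraries throughout). Each of the 5 differences had an exact two-sided sign-flip p of 0.03125, the smallest that 6 libraries can give, and the same value after adjustment over the 5. Among members with 3′ bases of their own, none of the 5 passed after adjustment. Against positions 57, 60 and 37 the exact sign-flip p was still 0.03125, the smallest possible, and 0.0521 after adjustment over the 5. There A58 minus position 57 was 0.379 points, A58 minus 59 was 0.121, A58 minus 60 was 0.303, A58 minus other A bases was -0.431 and A58 minus position 37 was -1.26 (exact sign-flip, adjusted p between 0.0521 and 0.188). The direction turned in 3 of the 5. A58 stayed above position 57 and below position 37 in both sets.

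CMC-dependent stops were called at single sites where the adjusted p of edgeR's quasi-likelihood test was under 0.05, the mean rise at least 10 points and the rise present in all 3 replicates. In old cells 16 of 269 members (5.95%) were called, beside 5.26% of all 5262 tested sites. In young cells it was 9 of 269 (3.35%), beside 4.5% of all tested sites. Both shares lie near those of all sites. Of the 17 members called at either age, 8 were called at both, and 7 were T, the only base that can be pseudouridine. T members were called at 7 of 56 (12.5%) in old cells, beside 19.7% of all T sites, and at 4 of 56 (7.14%) in young cells, beside 17.8%. Members that are A, C or G were called at 9 of 213 in old cells, beside 1.1% of all such sites, and at 5 of 213 in young cells, beside 0.661%. Without the limit on size, 145 members in old cells and 70 in young cells rose with an adjusted p under 0.05, and 2 and 10 fell. All of those that fell were among members that share their 3′ bases. The share of all tested sites past this threshold is not given, so these counts cannot be set beside a background. Whatever the p, the stop rate rose at 249 of 269 members and 4627 of all 5262 sites in old cells. In young cells it rose at 226 of 269 members and 4497 of all 5262 sites.

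Of the 17 called members, 16 share their 3′ bases with at least 1 other tRNA, and the 17 rest on 13 distinct sets of stop reads. Among the 106 members with 3′ bases of their own, 0 were called in old cells and 1 in young cells. In old cells 67 of the 106 rose with an edgeR adjusted p under 0.05 and a smaller rise, also without a background share. The count of called members also rested on single libraries. It was 9 without the first old replicate and 21 without the third, and in young cells 16 without the second and 4 without the third.

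**Figure D4:**
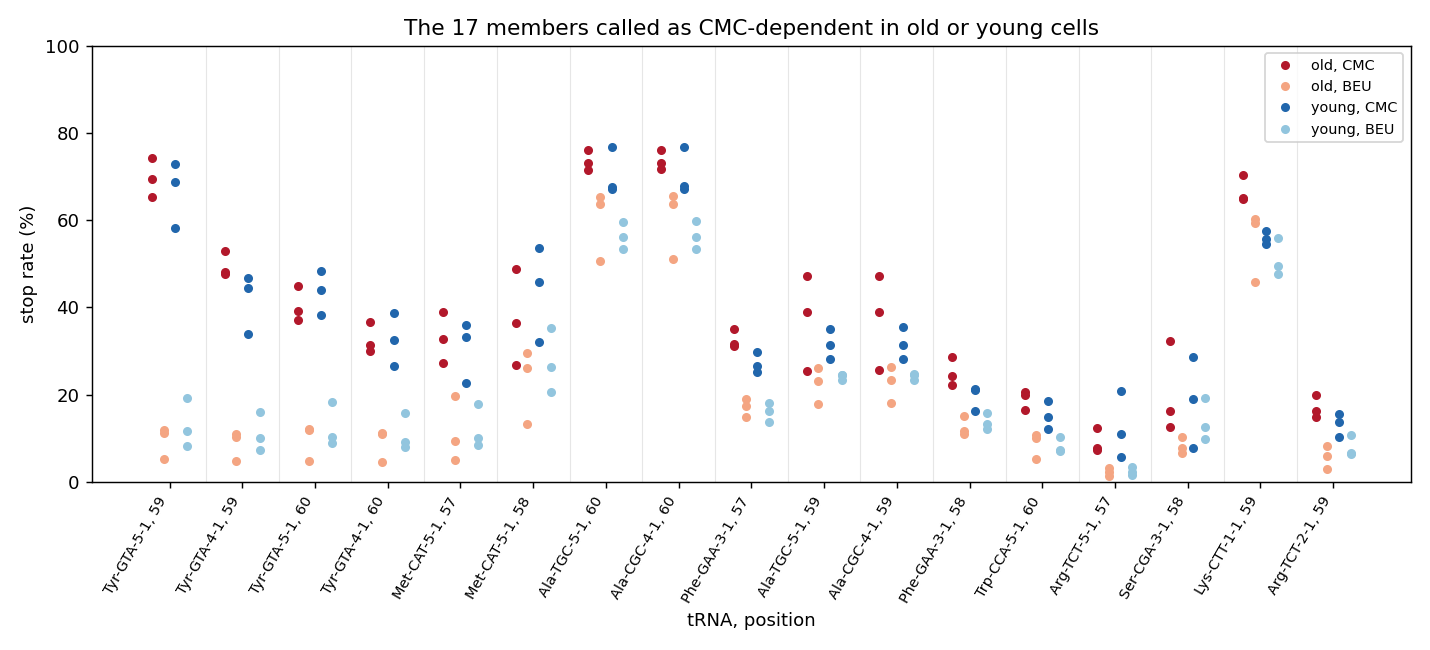
Stop rate in percent of the 17 members called as CMC-dependent in old or young cells, with 1 point per library and the tRNA and position on the x axis. The tRNA-Tyr-GTA members stand highest over their BEU libraries, while the tRNA-Ala members at 60 are above 50% in BEU libraries too.

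The largest rises were in tRNA-Tyr-GTA-5-1 and tRNA-Tyr-GTA-4-1, at bases where all 5 Tyr tRNAs had the same stop reads in the CMC libraries. In BEU libraries position 59 had 1021 stop reads in tRNA-Tyr-GTA-5-1 and tRNA-Tyr-GTA-4-1, 901 in tRNA-Tyr-GTA-1-1 and 770 in tRNA-Tyr-GTA-3-1 and tRNA-Tyr-GTA-2-1, the last 3 at the ceiling in at least 1 library. G59 of tRNA-Tyr-GTA-5-1 had 5.22%, 11.97% and 11.3% in the old BEU libraries beside the old CMC values given above, a rise of 60.3 ± 2.79 points (edgeR adjusted p = 8.1e-13; SD, n = 3 pairs). In young cells it had 72.8%, 58.2% and 68.9% with CMC and 11.6%, 19.2% and 8.32% in BEU, a rise of 53.6 ± 12.6 points (adjusted p = 5.42e-11). G is not a substrate of pseudouridine synthases. T stands at 59 in tRNA-Tyr-GTA-3-1 and tRNA-Tyr-GTA-2-1, where the rise in old cells was 4.10 points in each. Whether the stops arose at those T bases was not tested. C59 of tRNA-Tyr-GTA-4-1 rose by 40.9 ± 3.14 points in old and 30.5 ± 11.2 points in young cells. T60 rose by 30.8 ± 3.35 in old and 30.99 ± 9.96 in young cells in tRNA-Tyr-GTA-5-1, and by 23.7 ± 3.003 in old and 21.5 ± 10.1 in young cells in tRNA-Tyr-GTA-4-1. In each of these 4 members the CMC libraries lay above the BEU libraries of the same age, and each call held in all 17 other settings run. The lower limit on the rise, 1 of these settings, could not lose a call. The setting limited to members with 3′ bases of their own leaves these 4 out, so it could not test them. At T60 the 5 Tyr tRNAs had 600 stop reads each over the CMC libraries, over a coverage of 1488 reads in tRNA-Tyr-GTA-5-1 and 10807 in tRNA-Tyr-GTA-2-1. The rise in old cells at T60 of tRNA-Tyr-GTA-2-1, a tRNA at the ceiling in some BEU libraries, was 3.35 points.

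A57 and A58 were called in elongator tRNA-Met-CAT-5-1 and in tRNA-Phe-GAA-3-1, which carry A at 57 where tRNA-Met-CAT-2-1 and tRNA-Phe-GAA-1-1 carry G. A57 of tRNA-Met-CAT-5-1 had 39.0%, 27.3% and 32.7% in old CMC and 5.08%, 19.8% and 9.41% in old BEU libraries, a rise of 21.6 ± 13.3 points (adjusted p = 0.000117). Those stops were 93 reads over the CMC libraries, the same number as at G57 of tRNA-Met-CAT-2-1, where the rise in old cells was 1.27 points. A57 of tRNA-Phe-GAA-3-1 had 31.2%, 35.1% and 31.6% in old CMC and 14.9%, 18.9% and 17.3% in old BEU libraries, a rise of 15.6 ± 1.07 points (adjusted p = 4.91e-06). Its rise in young cells was 11.1 ± 4.64 points (adjusted p = 0.000181), and 8.63 points, under the size limit, without the third young replicate. A58 of tRNA-Phe-GAA-3-1 rose by 12.5 ± 1.71 points in old cells (adjusted p = 1.78e-05) and by 5.89 ± 4.68 in young cells, under the size limit there. At both bases of tRNA-Phe-GAA-3-1 the CMC libraries lay above the BEU libraries in both ages. Its old CMC stop reads, 119, 80 and 186 at A57, were the same at G57 of tRNA-Phe-GAA-1-1. There they made stop rates of 2.45%, 2.86% and 2.47%. At A58 both tRNAs had 123, 94 and 172 stop reads in the old CMC libraries. Young CMC stop reads were the same too, except in a library where tRNA-Phe-GAA-1-1 lay at the ceiling. From which tRNA these reads came cannot be told apart. A58 of tRNA-Met-CAT-5-1 rose by 14.3 ± 7.84 points in old cells (adjusted p = 0.0253), and its old CMC and BEU libraries overlapped. The call was lost in 7 of 16 other settings, among them without the first old replicate (edgeR adjusted p = 0.111) and without the second (0.0588). In young cells the mean rise there was 16.6 ± 17.1 points (adjusted p = 0.0427), with 1 pair of libraries going the other way, so it was not called. A57 of tRNA-Met-CAT-5-1 rose by 18.5 ± 11.96 points in young cells (adjusted p = 0.00401), a call lost without the first (0.0630) or the third young replicate (0.0604).

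T60 of the alanine tRNAs had the highest stop rate of the tested members without CMC. In this family, 6 tested tRNAs hold T at 60 and the stretch cccggcatctccacc after it, and their mean BEU stop rates lay between 58.1% and 79.3%. T60 of tRNA-Ala-CGC-4-1 had 76.2%, 73.1% and 71.7% in old CMC libraries and 51.1%, 63.8% and 65.5% in old BEU libraries, a rise of 13.5 ± 10.1 points (adjusted p = 0.0034). In young cells it had 67.1%, 67.9% and 76.7% with CMC and 56.2%, 59.8% and 53.3% in BEU, a rise of 14.2 ± 8.13 points (adjusted p = 0.00549). The old call was lost without the first old replicate, at 7.74 points (edgeR adjusted p = 0.214), and the young call without the third young replicate, at 9.54 points (0.156). tRNA-Ala-TGC-5-1 had nearly the same values, since both tRNAs had 1331 stop reads over the CMC libraries and 2221 over the BEU libraries there. The other 4 of these tRNAs had the same stop reads and were not called, with rises in old cells between 1.18 and 9.09 points. Position 60 is C in tRNA-Ala-CGC-1-1, which has the same bases after it and lay at the ceiling. It had 916 stop reads over a coverage of 27081 in CMC libraries and 607 over 42975 in BEU libraries. T59 of tRNA-Ala-CGC-4-1 had 39.0%, 47.2% and 25.7% in old CMC and 18.1%, 26.3% and 23.3% in old BEU libraries, a rise of 14.7 ± 10.7 points (adjusted p = 0.0128), and the libraries overlapped. This call was lost in 6 of 16 other settings, among them without the first old replicate (edgeR adjusted p = 0.439) and without the second (0.05005).

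The other called members were spread over several amino acids. A59 of tRNA-Lys-CTT-1-1 had 64.9%, 70.4% and 65.2% in old CMC libraries and 45.8%, 60.3% and 59.3% in old BEU libraries, a rise of 11.7 ± 6.78 points without overlap (adjusted p = 0.0112), which was 7.95 points without the first old replicate (edgeR adjusted p = 0.211). tRNA-Lys-CTT-2-1 carries G there, has the same bases from 60 on and lay at the ceiling. T60 of tRNA-Trp-CCA-5-1 rose by 10.4 ± 1.01 points in old cells (adjusted p = 2.65e-05), without overlap of CMC and BEU libraries, and the 6 Trp tRNAs had 1274 stop reads each over the CMC libraries. A58 of tRNA-Ser-CGA-3-1 rose by 12.1 ± 8.95 points in old cells, on 72 stop reads over the CMC libraries that are also those of tRNA-Ser-CGA-1-1. That call was lost in 7 of 16 other settings, among them without the first old replicate (edgeR adjusted p = 0.152) and without the second, at 7.14 points (0.0784). A59 of tRNA-Arg-TCT-2-1 rose by 11.3 ± 5.13 points in old cells, on 116 stop reads shared with G59 of tRNA-Arg-TCT-3-1, where the rise was 3.66 points, and it was 8.48 points without the first old replicate. G57 of tRNA-Arg-TCT-5-1 was the called member with 3′ bases of its own. It had 7.41%, 7.69% and 12.3% in old CMC, 1.29%, 2.24% and 3.21% in old BEU, 10.9%, 5.80% and 20.8% in young CMC and 2.14%, 3.51% and 1.45% in young BEU libraries. CMC libraries lay above BEU libraries in both ages, on 34 stop reads in all CMC libraries together. Its rise was 6.90 ± 1.95 points in old cells (adjusted p = 0.000447) and 10.1 ± 8.63 in young cells (adjusted p = 0.00077). The young rise was 8.52 points with 1 subtracted and 5.53 without the third young replicate (edgeR adjusted p = 0.0670), under the size limit in both. In the other direction, A58 of tRNA-Gln-TTG-5-1 had 3.71%, 5.02% and 3.90% in old CMC and 4.15%, 8.57% and 11.9% in old BEU libraries. Those libraries overlapped, while the young CMC and BEU libraries did not. It fell by 5.85 ± 3.02 points in young cells (adjusted p = 0.000214). In old cells the difference was -3.997 ± 3.80 points (adjusted p = 0.0425), and -1.99 without the third old replicate (edgeR adjusted p = 0.356). Its 3′ bases are those of 7 distinct tRNAs, itself included.

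Since CMC stays on pseudouridine, T members were set against the other bases at the same position. At position 60 the rise was 4.17 ± 2.26 points at the 45 T members and 1.29 ± 1.41 at the 23 other members, and T was higher in 6 of 6 pairs of libraries (exact sign-flip p = 0.03125, adjusted p = 0.0625; SD, n = 6 pairs). At position 59 it was 4.98 ± 3.46 points at the 11 T members and 3.30 ± 1.74 at the 56 others, and T was higher in 4 of 6 pairs (exact sign-flip p = 0.219). Neither passed. Among members with 3′ bases of their own the difference was 1.30 points at 60 (exact sign-flip, adjusted p = 0.0625), and at 59 it was -1.08 points.

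No age difference in the position means passed its test. Without CMC, the position means of old minus young were -0.632 points at 57, -0.812 at 58, -0.384 at 59 and 0.0867 at 60. With CMC they were 0.248, 0.166, 1.23 and 0.517 points. None of the 8 passed (exact permutation of 3 against 3 libraries, adjusted p of at least 0.914), in a design whose smallest p is 0.1. Among members with 3′ bases of their own the 8 differences lay between -0.474 and 0.521 points, and none passed (exact permutation, adjusted p of at least 0.96).

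At single sites, age was tested where the BEU stop rate averaged 5% or more. Of 72 such members, 1 (1.39%) was called, beside 5.49% of the 893 such sites of any position. It was lower in old cells, as were 5.26% of the 893, while 0 members and 0.224% of the 893 were called higher in old cells. The called member was G57 of tRNA-Ala-TGC-1-1, with 7.93%, 7.14% and 5.32% in old BEU libraries and 13.3%, 13.0% and 10.0% in young BEU libraries. The groups did not overlap, and the difference was -5.31 ± 1.31 points (SE; edgeR adjusted p = 0.0291). With CMC it had 14.3%, 16.2% and 15.0% in old and 11.4%, 12.6% and 16.2% in young libraries, which overlapped. Its bases from 58 on are those of tRNA-Ala-AGC-2-1. This call was lost in 9 of 16 other settings: with limma, with DESeq2, with 1 subtracted, with the ceiling included, and in edgeR without any 1 of the old replicates (adjusted p between 0.0548 and 0.117), the first young replicate (0.153) or the second (0.0855). Of the 72 members, 51 were lower in old cells (70.8%), with a median of -1.06 points, beside 59.4% lower and a median of -0.416 points over the 893 sites. Of the 106 members with 3′ bases of their own, 4 had a stop rate high enough for this test and 0 were called by edgeR.

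With CMC, 96 members had a mean stop rate of at least 5%, and edgeR called 0 of them, beside 0% of 1513 sites of any position. At an unadjusted p under 0.05 there were 11 members, all higher in old cells, beside 8.86% of all such sites, and limma and DESeq2 called 0 as well. The median difference was 1.29 points at the 96 members, with 67 higher in old cells, and 0.701 points over the 1513 sites. The largest differences upwards, none of which passed, were 11.52 ± 10.2 points at T59 of tRNA-Ala-TGC-6-1 (SE; edgeR adjusted p = 0.965), 10.9 ± 2.00 at A59 of tRNA-Lys-CTT-1-1 (adjusted p = 0.311) and 7.99 ± 4.28 at C59 of tRNA-Tyr-GTA-4-1 (adjusted p = 0.615). A59 of tRNA-Lys-CTT-1-1 had 64.9%, 70.4% and 65.2% in old CMC libraries and 55.7%, 54.5% and 57.7% in young CMC libraries, without overlap. The largest downwards was -6.56 ± 8.96 points at A58 of tRNA-Met-CAT-5-1 (adjusted p = 0.902). Over the other settings, replicates left out included, the difference lay between 3.81 and 19.7 points at T59 of tRNA-Ala-TGC-6-1 and between -12.5 and -1.29 at A58 of tRNA-Met-CAT-5-1. Of the 106 members with 3′ bases of their own, 23 were tested with CMC and 0 were called by edgeR.

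The age difference of the rise itself could be tested at 11 members with a mean rise of at least 10 points. edgeR called 0 of 11, beside 1.21% of 248 sites, and 1 had an unadjusted p under 0.05. That was C59 of tRNA-Tyr-GTA-4-1, whose rise was 40.9 points in old and 30.5 in young cells, a difference of 10.5 ± 6.73 points (SE; adjusted p = 0.257). At A58 of tRNA-Met-CAT-5-1 the difference was -2.24 ± 10.9 points (adjusted p = 0.931). None of the 106 members with 3′ bases of their own had a rise large enough for this test.

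**Figure D5:**
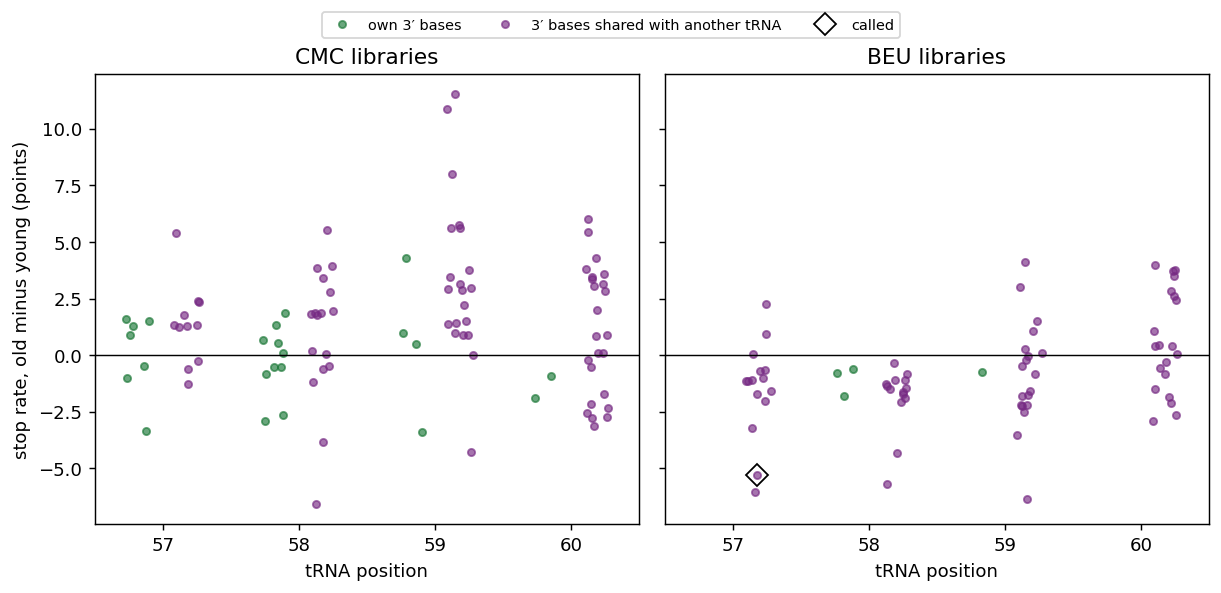
Stop rate in old minus young cells, in percentage points, of members tested for age in CMC libraries (left) and BEU libraries (right), by tRNA position. The diamond marks G57 of tRNA-Ala-TGC-1-1 at -5.31 points, the member called; most BEU points lie below 0 and most CMC points above it.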

How the data were processed

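Each of the 6 deposited tables pairs the CMC and the BEU library of 1 age and replicate number. Per the file headers, it holds coverage, a count of reads over a base, the number of stop reads (used as deposited, other than in a named alternative) and the stop rate, a percent that the authors deposited. Bowtie2 2.3.5, Bowtie and mm10 come from the submitters' processing notes, which give no roles; for reads that match several tRNAs, the rule of placement was not stated in these sources.

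Entries with identical values were counted once. Tested sites had coverage of at least 20 in all 12 libraries and stayed under 7500 at and 5′ of the site. Stop and read-through counts were fitted with edgeR 4.0.16 (R 4.3.3; quasi-likelihood test, 1 coefficient per library, 1 log-odds coefficient per group, 8 residual degrees of freedom, no dispersion trend), adjusted by Benjamini-Hochberg over all tested sites of any base. Age was tested at mean stop rates of at least 5%, and the age difference of the rise at mean rises of at least 10 points. The fit was tested on simulated data. limma 3.58.1 and DESeq2 1.42.0 were alternatives. Position means were compared by exact permutation over libraries. Without molecular identifiers reads are not independent molecules, and depth limits rates near 1 stop read.

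The members and lists were chosen with earlier results of these data known. Named sites were the 10 highest and 5 lowest A58 sites in BEU libraries, the 10 largest called rises per age, the largest age differences and the best-covered A58 of each amino acid (at most 1 per anticodon, or anticodon and position); others were named because they share stop reads with one of these. Sequences are those of the deposited rows. The RefSeq table used here lists tRNA genes under other names, so no genome coordinates are given. Correlations between CMC and BEU libraries of the same number were -0.143 to 0.0614 over 1584 sites, so the fits carry no replicate block. Rises per replicate, their SDs and the comparison of T with other bases still subtract the BEU library from the CMC library of the same number, which share a table.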

Additional observations from a re-analysis of the deposited data

How the results depend on the processing

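The rises of the position means with CMC kept their direction and stayed past the threshold under each alternative that kept all 12 libraries. Without 1 replicate they ranged from 1.43 to 2.38 points at 57, 1.93 to 3.16 at 58, 3.19 to 4.13 at 59 and 2.67 to 3.89 at 60. The rise at 58 no longer passed without the first young replicate (2.05 points, exact permutation, adjusted p = 0.05). Nor did it without the third (1.93 points, exact permutation, adjusted p = 0.05). The count of 16 called members in old cells became 10 at a coverage minimum of 50, 43 and 5 with a rise of at least 5 and 20 points, 0 at members with 3′ bases of their own, and 9 to 21 without 1 replicate. The 9 in young cells became 23 and 4 with a rise of at least 5 and 20 points, 1 at members with 3′ bases of their own, and 4 to 16 without 1 replicate. The 1 member called for age in BEU libraries became 0 with the ceiling included, with 1 subtracted, with limma, with DESeq2, at a mean stop rate of at least 10% and at members with 3′ bases of their own, and 4 at a rate of at least 2%; without 1 replicate it ranged from 0 to 4. The other 2 age counts stayed at 0 in each setting run. Shares of all tested sites called under these alternatives are not given, so the changed counts cannot be set beside a background.

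A58 minus position 57 was -0.0588 points with the ceiling included, 0.199 at a coverage minimum of 50, 0.158 by medians, 0.211 with tRNAs of the same bases 61 to 75 averaged first, 0.379 at members with 3′ bases of their own and 0.380 at these with 1 subtracted. A58 minus 59 was, in the same order, -0.291, 0.164, 0.0859, -1.41, 0.121 and 0.120. A58 minus 60 was -0.168, 0.993, 0.202, -1.16, 0.303 and 0.304, and 0.147 without tRNA-Ala. A58 minus other A bases was 0.391, 1.62, 0.659, 0.0106, -0.431 and -0.431. A58 minus position 37 was -2.88, -4.91, -0.349, -3.94, -1.26 and -1.27. Without 1 replicate the 5 ranged from 0.344 to 0.513, -1.27 to -1.05, -1.40 to -1.17, 0.876 to 1.25 and -2.53 to -2.29, where 5 libraries cannot reach the threshold. The cause of the other changes was not tested.

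T minus other bases at 59 was -0.934 at a coverage minimum of 50 and -1.08 at members with 3′ bases of their own. Old minus young turned at 60 in BEU libraries with 1 subtracted (-0.00253), by medians (-0.102), with the same bases 61 to 75 averaged first (-0.148) and at members with 3′ bases of their own (-0.127). It turned at 58 in CMC libraries with 1 subtracted (-0.00895) and at members with 3′ bases of their own (-0.0939), where 60 in CMC libraries turned too (-0.0536). Without 1 replicate, old minus young ranged from -0.788 to 0.384 at 59 and -0.365 to 0.919 at 60 in BEU libraries, and from -0.267 to 0.765 at 57, -0.880 to 0.706 at 58 and -0.351 to 1.19 at 60 in CMC libraries. The age difference of the rise at T60 turned without 1 replicate in tRNA-Ala-CGC-4-1 (-6.42 to 3.99) and tRNA-Ala-TGC-5-1 (-6.30 to 4.26), and at A58 of tRNA-Met-CAT-5-1 (-12.1 to 3.20).

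With the replicate number as a block within age, the counts of called members were 16 and 9, and 0 for the age difference of the rise; with the number as a block across ages they were 1 and 0. The block moved none of these counts. An alternative limited to tRNAs with a longer 3′ end was not run, since it would keep 1 tRNA. Losses of calls given beside single members above are not the full list. T60 of tRNA-Ala-CGC-4-1 lost its call in 3 of 17 other settings in old cells and in 5 of 17 in young cells. A59 of tRNA-Lys-CTT-1-1 lost its old call in 5 of 17. A57 of tRNA-Met-CAT-5-1 lost its young call, and T59 of tRNA-Ala-TGC-5-1 its old call, in 5 of 16 each. For each of these calls the settings included limma, DESeq2 or both, and the higher limit on the rise. Settings with 3′ bases of their own, averaged tails, tRNA-Ala left out and the block across ages were chosen after seeing the data. Depth limits low rates: 16.9% of CMC values and 10.5% of BEU values of the members rest on the lowest value of 1 stop read.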

Other observations

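Values that follow were picked after the data were seen and were not tested. The mean BEU stop rate was 6.12% at the 22 tested A57 members and 2.50% at the 46 tested G57 members. Among members with 3′ bases of their own it was 1.17% at 5 A57 members and 1.64% at 25 G57 members. In alanine tRNAs with a high stop rate at T60, recorded coverage was lower at 57 than at 61. In CMC libraries coverage at 57 was 4.37% of that at 61 in tRNA-Ala-TGC-7-1 and 13.7% in tRNA-Ala-CGC-4-1. In BEU libraries it was 7.19% and 26.9%. Both tRNAs had the same 1331 stop reads at T60 over the CMC libraries and the same 2221 over the BEU libraries. Coverage at 61 includes those reads, and from which tRNA they came cannot be told apart. How much coverage either tRNA itself lost was thus not tested.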
